A study of Homo sapiens with 9 samples.

Results

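The 38 core autophagy genes and autophagy receptors described here were taken by their symbols from the GENCODE entries of a count table of 112171 features. All 38 were found, and all 38 passed the filter on low counts, which left 22353 features to test. The cells were PANC-1, an established line from a human pancreatic ductal carcinoma, and all 3 groups were kept in hypoxia for 12 h in medium with an added agent. One group received rakicidin A, a bacterial cyclic lipodepsipeptide, at 42 nM, the next received BE-43547A1 at 41 nM, and the controls received the solvent DMSO at 0.04%. The labels do not say whether the compound media held DMSO at that share, so each value against DMSO compares media whose solvent content may differ. Each group had 3 libraries of total RNA, read from both ends at 76 bases. The labels do not say whether the triplicates came from separate cultures, so a p-value here is set against library-to-library spread that could be technical. No library was made in normal oxygen, so every difference below is between hypoxic cells.

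Macroautophagy encloses cytoplasm in a double membrane, the autophagosome, and delivers it to the lysosome for breakdown. The ULK kinase complex starts the process, a class III PI3-kinase marks the membrane with PI3P, and ATG2, ATG9 and WIPI proteins feed it with lipid. The ATG12 and ATG8 conjugation enzymes then attach ATG8 proteins (the LC3 and GABARAP families) to the membrane, where receptors such as p62 (SQSTM1) tether cargo to them. The RNA of a receptor or an ATG8 gene is not a measure of autophagic flux, which was not measured here.

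The number of counts on features was 27696394 to 30596594 in the controls, 26203326 to 34870860 with rakicidin A and 39807220 to 45048999 with BE-43547A1. Levels are given as CPM, a count divided by the TMM-scaled library size. The scaling factors were 1.14 to 1.15 in the controls, 0.89 to 0.898 with rakicidin A and 0.963 to 0.989 with BE-43547A1. Because these factors differ between groups, counts of calls made with total counts alone are given beside the main counts, and members of the 38 genes whose call changed under that scaling are named. Under that scaling the median log2 fold change of all features moved from -0.02 to -0.38 for rakicidin A against DMSO, from 0.00 to -0.24 for BE-43547A1 against DMSO, and from -0.02 to -0.14 for rakicidin A against BE-43547A1. The third DMSO library stood apart, with 0.52% of its counts on mitochondrial genes against 0.247 to 0.334% in the other libraries. The epithelial markers KRT8, KRT18 and KRT19 had group means of 751 to 1234 CPM, EPCAM 14.7 to 18.9 CPM and KRT7 5.10 to 6.58 CPM, so all 5 were detected. Of markers of other cells, CD3E was at 0, PTPRC, CDH5 and COL1A2 had means of at most 0.148 CPM, and CD14 went from 0.12 CPM in DMSO to 0.565 CPM with BE-43547A1 and ITGAM from 1.54 to 2.46 CPM. COL1A1 and THY1 had means of 1.92 to 7.31 CPM. The part of these markers in the results below was not tested.

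Most of the autophagy genes were higher with either compound. Against DMSO, 26 of 38 genes rose and 7 fell after rakicidin A (68.4% and 18.4%), where 31.9% and 32.7% of all features tested were called higher and lower. After BE-43547A1, 23 rose and 7 fell (60.5% and 18.4%), where 35.3% and 35.1% of all features were called. The threshold was a Benjamini-Hochberg adjusted p of 0.05 over all features in edgeR's quasi-likelihood test, in a model of all 9 libraries. The median log2 fold change of the 38 genes was 0.46 after rakicidin A and 0.36 after BE-43547A1. Scaled by total counts alone, 17 rose and 11 fell after rakicidin A (median 0.10), and 19 rose and 14 fell after BE-43547A1 (median 0.12). Of all features, 20.0% were then called higher and 51.0% lower with rakicidin A, and 26.6% and 46.7% with BE-43547A1. Autophagy genes are well expressed here: the median of their mean levels was 41.5 CPM, against 4.38 CPM over all features tested.

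Both comparisons share the same 3 DMSO libraries, so their calls are given side by side. Called higher in each of them were ULK1, RB1CC1, ATG13, ATG14, UVRAG, AMBRA1, ATG2A, ATG2B, WIPI1, WDR45, ATG3, ATG4D, ATG12, MAP1LC3A, MAP1LC3B, GABARAPL1, SQSTM1, NBR1, OPTN, TAX1BP1 and CALCOCO2. Called lower in each of them were ULK2, WIPI2, VMP1, ATG4C, ATG10, ATG16L1 and ATG16L2. PIK3C3, PIK3R4, ATG4B, ATG5 and ATG7 passed as higher with rakicidin A and did not pass with BE-43547A1, and GABARAP and GABARAPL2 passed as higher with BE-43547A1 and did not pass with rakicidin A. BECN1, ATG9A and ATG4A passed with neither. A change of at least 1 on the log2 scale, called as well, was found for 9 higher and 2 lower genes after rakicidin A (28.9% of the 38, against 27.8% of all features). After BE-43547A1 it was found for 13 higher and 1 lower (36.8%, against 31.7% of all features). Those shares are close to the background.

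**Figure D1:**
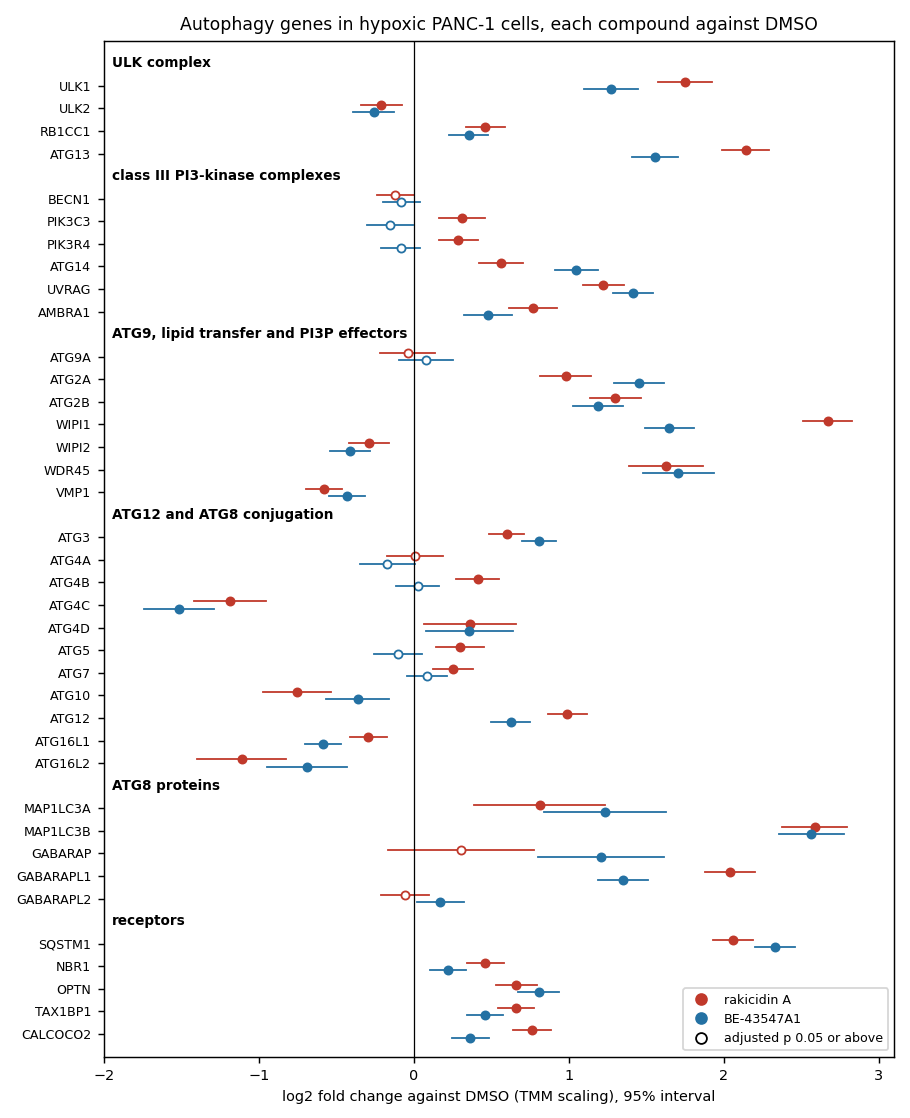
Log2 fold change of each of the 38 genes against DMSO after rakicidin A and after BE-43547A1, grouped by role, with bars for the 95% interval of edgeR's quasi-likelihood fit (n = 3 libraries per group) and open points for genes that did not pass. WIPI1, MAP1LC3B, ATG13, SQSTM1 and GABARAPL1 lie farthest to the right after rakicidin A, and ATG4C and ATG16L2 farthest to the left.

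Promoter windows of the genes are shown where a searched motif lies close to the start of a gene that rose with both compounds. The RefSeq table of GRCh38.p14 held 43 start sites for 34 of the 38 genes (not RB1CC1, UVRAG, ATG4D or MAP1LC3A), and the 250 bases before each start were searched on both strands for 5 motifs of stress-responsive and lysosomal gene control. The motifs were the CARE of ATF4 and CHOP dimers (TGATGNAAN), the cyclic AMP element CRE (TGACGTCA), the E-box bound by TFEB and MYC family factors (CACGTG), the AP-1 site (TGANTCA) and the antioxidant element ARE (TGACNNNGC). A stretch of letters can match AP-1 and ARE at once, and no match below did so. The sequences below are the 150 bases before the start, 5′ to 3′ on the strand of the gene, with the matched letters in capitals.
GABARAPL1, chr12:10212727-10212876, plus strand: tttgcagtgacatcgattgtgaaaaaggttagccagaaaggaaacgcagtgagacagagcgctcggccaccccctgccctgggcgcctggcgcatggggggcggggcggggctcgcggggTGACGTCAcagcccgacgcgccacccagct
MAP1LC3B, chr16:87392186-87392335, plus strand: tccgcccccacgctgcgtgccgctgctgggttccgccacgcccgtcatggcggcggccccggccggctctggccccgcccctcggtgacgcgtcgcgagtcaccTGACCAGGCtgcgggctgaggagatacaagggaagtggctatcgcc
WDR45, chrX:49079888-49080037, minus strand: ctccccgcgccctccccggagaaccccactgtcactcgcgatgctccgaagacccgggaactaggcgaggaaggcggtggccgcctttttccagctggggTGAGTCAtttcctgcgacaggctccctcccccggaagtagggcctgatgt
ATG14, chr14:55411831-55411980, minus strand: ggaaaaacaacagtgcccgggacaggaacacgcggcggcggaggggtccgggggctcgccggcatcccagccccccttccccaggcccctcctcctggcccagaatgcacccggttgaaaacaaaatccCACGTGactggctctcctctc
ATG3, chr3:112561963-112562112, minus strand: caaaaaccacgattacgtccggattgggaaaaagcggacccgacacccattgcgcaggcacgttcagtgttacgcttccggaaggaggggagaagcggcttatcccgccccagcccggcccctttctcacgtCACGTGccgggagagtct
CALCOCO2, chr17:48830885-48831034, plus strand: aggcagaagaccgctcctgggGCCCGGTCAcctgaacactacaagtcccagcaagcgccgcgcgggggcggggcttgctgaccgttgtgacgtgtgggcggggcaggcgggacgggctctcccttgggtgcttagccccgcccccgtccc

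GABARAPL1 held the 1 CRE among the genes, 30 bases before its start, and 1.65% of all 35116 windows of that length held one. The E-box lay 21 bases before the start of ATG14 and 18 bases before that of ATG3, with 6.34% of all windows holding it. WDR45 held an AP-1 match (TGAGTCA) 50 bases before a start, against 6.57% of all windows. The ARE was matched in MAP1LC3B 46 bases before the start (TGACCAGGC) and in CALCOCO2 129 bases before it on the opposite strand (GCCCGGTCA), and 10.9% of all windows held a match. No window of the 34 genes held the CARE letters, which 3.13% of all windows held. Of the 43 windows searched, 1 held the CRE, 2 the E-box, 1 the AP-1 site and 2 the ARE. For the E-box, the AP-1 site and the ARE these are smaller shares than those of all windows. The matches are of letters, and no binding was measured.

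The ULK complex phosphorylates the first autophagy proteins at the forming membrane. Of its 4 genes in the core set, 3 rose with each compound (2 with total counts alone) while ULK2 fell. ULK1, the kinase itself, stood at 26.1, 25.0 and 33.6 CPM in the DMSO libraries, 92.7, 96.3 and 96.2 CPM after rakicidin A, and 69.0, 66.0 and 69.8 CPM after BE-43547A1. The 3 groups did not overlap, with rakicidin A highest. The log2 fold change of ULK1 was 1.75 (SE 0.084, adjusted p 1.33e-12 in edgeR's quasi-likelihood test) after rakicidin A and 1.27 (SE 0.083, adjusted p 1.27e-10) after BE-43547A1. ATG13, the regulatory subunit that links ULK1 to its partners, stood at 20.8, 19.2 and 23.4 CPM in DMSO, 95.3, 93.7 and 91.1 CPM after rakicidin A, and 66.2, 59.7 and 60.7 CPM after BE-43547A1. Its groups were likewise apart and in the same order, a 4.41-fold rise with rakicidin A (adjusted p 7.5e-15) and a 2.94-fold rise with BE-43547A1 (adjusted p 7.14e-13). RB1CC1 (FIP200), the scaffold of the complex, rose less: its mean went from 218 CPM in DMSO to 301 CPM and 279 CPM, log2 fold changes of 0.46 and 0.35. Those of RB1CC1 were 0.10 and 0.12 with total counts alone and did not pass. ULK2, the paralogous kinase, fell by 0.21 and 0.26 on the log2 scale, from 40.6 CPM in DMSO to 35.0 CPM and 33.9 CPM. Its call with rakicidin A was lost without the third rakicidin A library (adjusted p 0.0609). ATG101, a further subunit of the complex, was counted with the other initiation and phagophore genes and not in the core set. Its mean went from 68.5 CPM in DMSO to 164 CPM after rakicidin A and 106 CPM after BE-43547A1. The log2 fold changes of ATG101 were 1.26 (adjusted p 5.4e-12 in edgeR's quasi-likelihood test) and 0.63 (adjusted p 8.54e-08).

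Among the 6 genes of the class III PI3-kinase complexes, 5 rose with rakicidin A (3 rose and 1 fell with total counts alone) and 3 with BE-43547A1 (3 rose and 3 fell with total counts alone). With TMM those that rose were 83.3% and 50%, against 31.9% and 35.3% of all features called higher. With total counts alone 20.0% and 26.6% of all features were called higher, and 51.0% and 46.7% lower. UVRAG and ATG14 mark the alternative complexes, since each binds the shared core of BECN1, PIK3C3 and PIK3R4 without the other. UVRAG, the endosomal subunit, stood at 44.1, 44.5 and 40.5 CPM in DMSO, 99.4, 105 and 96.7 CPM after rakicidin A, and 120, 115 and 108 CPM after BE-43547A1. It rose 2.33-fold with rakicidin A (adjusted p 3.09e-12) and 2.67-fold with BE-43547A1 (adjusted p 3.47e-13), and every treated library was above every DMSO library. ATG14, the subunit that brings the kinase to the forming autophagosome, stood at 27.2, 25.9 and 25.2 CPM in DMSO, 37.2, 41.7 and 36.6 CPM after rakicidin A, and 54.0, 56.0 and 51.9 CPM after BE-43547A1. Here the BE-43547A1 libraries were the highest and no groups overlapped. The log2 fold changes of ATG14 were 0.56 (SE 0.067) and 1.05 (SE 0.066). AMBRA1, a BECN1 partner and ULK1 regulator, rose by 0.77 and 0.48 on the log2 scale.

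The calls of the shared core depended on the scaling. PIK3C3 (VPS34), the catalytic subunit, had log2 fold changes of 0.31 (adjusted p 0.000871) with rakicidin A and -0.16 (adjusted p 0.0584) with BE-43547A1. Without the third DMSO or the third BE-43547A1 library the latter passed as lower, at -0.22 and -0.21 (adjusted p 0.00615 and 0.0197). For PIK3R4 (VPS15), its regulatory subunit, they were 0.28 (adjusted p 0.000377) and -0.09 (adjusted p 0.202). With total counts alone the rakicidin A values of PIK3C3 and PIK3R4 turned to -0.05 and -0.07 and did not pass, and their BE-43547A1 values were -0.39 and -0.32 and passed as lower (adjusted p 4.93e-05 and 8.35e-05). BECN1, the scaffold, had means of 65.8, 60.6 and 62.3 CPM in DMSO, rakicidin A and BE-43547A1, with adjusted p of 0.0694 and 0.211. It passed as lower with total counts alone, at -0.48 (adjusted p 4.1e-07) and -0.32 (adjusted p 4.27e-05).

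Genes of ATG9 vesicles, lipid transfer and PI3P binding included WIPI1, with the largest rise of the 38 after rakicidin A. With each compound 4 of these 7 genes rose and 2 fell, and with total counts alone 4 rose with each, while 3 fell with rakicidin A and 2 with BE-43547A1. With TMM, 57.1% rose, against 31.9% and 35.3% of all features called higher with rakicidin A and BE-43547A1. The share that fell, 28.6%, is below the 32.7% and 35.1% of all features called lower. With total counts alone 20.0% and 26.6% of all features were called higher, and 51.0% and 46.7% lower. WIPI1, which binds PI3P on the forming membrane, stood at 8.62, 8.34 and 8.47 CPM in DMSO, 57.0, 50.8 and 54.2 CPM after rakicidin A, and 25.9, 25.5 and 28.3 CPM after BE-43547A1. The groups were widely separated. WIPI1 rose by 2.67 (SE 0.075, adjusted p 6.62e-16) with rakicidin A and by 1.65 (SE 0.075, adjusted p 7.14e-13) with BE-43547A1 on the log2 scale. In GENCODE v29, 24.3% of the WIPI1 exon bases are shared with ARSG on the opposite strand, and ARSG itself had log2 fold changes of -0.80 and -0.44. WDR45 (WIPI4), the family member that binds ATG2, stood at 3.73, 3.00 and 3.52 CPM in DMSO, 10.1, 10.6 and 11.0 CPM after rakicidin A, and 12.4, 10.8 and 10.4 CPM after BE-43547A1. It rose 3.09-fold and 3.26-fold, and the ranges of the compounds overlapped each other but not that of DMSO. WIPI2, which recruits ATG16L1 to PI3P, fell instead, by 0.29 and 0.41 on the log2 scale.

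The lipid transfer proteins ATG2A and ATG2B both rose. ATG2A stood at 9.63, 9.67 and 10.1 CPM in DMSO, 19.1, 20.0 and 19.0 CPM after rakicidin A, and 28.7, 25.5 and 26.4 CPM after BE-43547A1, so that no groups overlapped and BE-43547A1 was highest. Its log2 fold changes were 0.98 (SE 0.078, adjusted p 2.42e-09) and 1.45 (SE 0.076, adjusted p 4.98e-12). ATG2B stood at 12.2, 11.7 and 10.3 CPM in DMSO, 27.1, 28.1 and 28.8 CPM after rakicidin A, and 26.1, 25.0 and 26.6 CPM after BE-43547A1. Its log2 fold changes were 1.30 (SE 0.078, adjusted p 3.93e-11) and 1.19 (SE 0.077, adjusted p 1.16e-10), with every treated library above DMSO. ATG9A, the scramblase of the seed vesicles, passed with neither compound: its means were 32.4, 31.4 and 34.1 CPM. With rakicidin A it passed as lower under total counts alone (-0.40, adjusted p 0.000679), and with BE-43547A1 its value turned to -0.16 (adjusted p 0.106). VMP1, a scramblase of the endoplasmic reticulum, fell from 723, 707 and 651 CPM in DMSO to 456, 462 and 472 CPM after rakicidin A and 502, 503 and 537 CPM after BE-43547A1. It fell by 0.58 and 0.43 on the log2 scale, and no groups overlapped. Per kilobase of GENCODE v29 exon, VMP1 ranked first of the 38 genes in DMSO and second, behind SQSTM1, with each compound. The feature of the microRNA gene MIR21, which lies in the VMP1 locus, was listed at 0 in all 9 libraries.

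**Figure D2:**
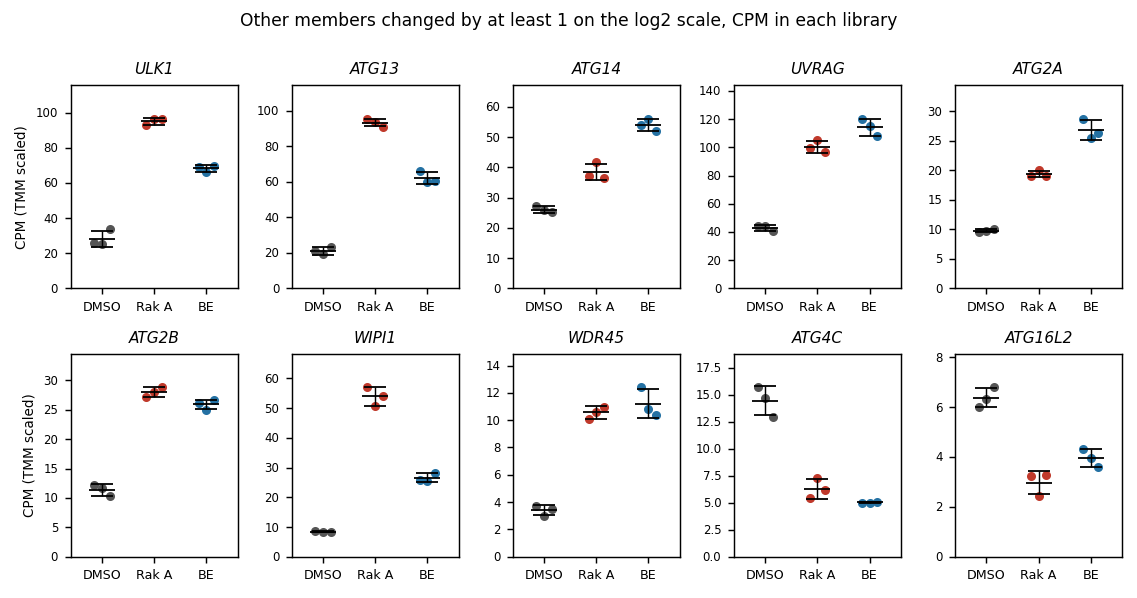
CPM in each library (points) with the mean and SD (bars, n = 3) for ULK1, ATG13, ATG14, UVRAG, ATG2A, ATG2B, WIPI1, WDR45, ATG4C and ATG16L2 in DMSO, rakicidin A (Rak A) and BE-43547A1 (BE). The treated libraries lie above DMSO for the first 8 genes and below it for ATG4C and ATG16L2, and WIPI1 after rakicidin A is at 50.8 to 57.0 CPM against 25.5 to 28.3 CPM after BE-43547A1.

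Of the 11 genes of ATG12 and ATG8 conjugation, 6 rose and 4 fell with rakicidin A, and 3 rose and 4 fell with BE-43547A1. The share that fell, 36.4% with each, is near the 32.7% and 35.1% of all features called lower. The share that rose was 54.5% with rakicidin A, against 31.9% of all features. With BE-43547A1 it was 27.3%, below the 35.3% of all features called higher. Scaled by total counts alone, 2 rose and 5 fell with rakicidin A, and 2 rose and 8 fell with BE-43547A1. ATG12, the ubiquitin-like protein joined to ATG5, stood at 88.4, 87.5 and 87.5 CPM in DMSO, 176, 168 and 179 CPM after rakicidin A, and 124, 137 and 145 CPM after BE-43547A1. It rose 1.98-fold and 1.54-fold, with no overlap between groups. ATG3, the E2-like enzyme that transfers ATG8 to lipid, rose by 0.60 and 0.81 on the log2 scale, from a mean of 112 CPM in DMSO. The log2 fold change of ATG7, the E1-like enzyme of both reactions, was 0.25 (adjusted p 0.00144) with rakicidin A and 0.09 (adjusted p 0.216) with BE-43547A1. In GENCODE v29, 18.1% of the ATG7 exon bases are shared with VGLL4 on the opposite strand, which had log2 fold changes of 0.55 and 0.47. The part of shared reads in the ATG7 values was not tested. ATG5, the acceptor of ATG12, had values of 0.30 (adjusted p 0.00185) and -0.10 (adjusted p 0.22), and the latter passed as lower without the third DMSO library (-0.21, adjusted p 0.00113). The rakicidin A values of ATG7 and ATG5 turned to -0.10 and -0.06 with total counts alone and did not pass, while their BE-43547A1 values were -0.15 and -0.34 and passed as lower (adjusted p 0.0348 and 0.000404).

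The ATG16L scaffolds, which hold the ATG12 and ATG5 conjugate on the membrane, were lower with each compound. ATG16L2 stood at 6.02, 6.32 and 6.79 CPM in DMSO, 3.24, 2.43 and 3.26 CPM after rakicidin A, and 4.32, 3.95 and 3.58 CPM after BE-43547A1. No groups overlapped, and it fell 2.16-fold (adjusted p 8.97e-07) and 1.61-fold (adjusted p 7.44e-05). ATG16L1, the main scaffold, fell by 0.30 and 0.58 on the log2 scale from a mean of 98.0 CPM. ATG10, the E2-like enzyme for ATG12, fell by 0.76 and 0.36 from a mean of 16.1 CPM.

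The ATG4 proteases, which prime ATG8 proteins and cut them from lipid, moved in different directions. ATG4C stood at 15.7, 14.7 and 13.0 CPM in DMSO, 5.46, 7.29 and 6.19 CPM after rakicidin A, and 5.02, 5.02 and 5.10 CPM after BE-43547A1. Every treated library was below every DMSO library, and ATG4C fell 2.28-fold (adjusted p 2.02e-08) and 2.86-fold (adjusted p 4.43e-10). ATG4B, the most active family member, rose with rakicidin A (log2 fold change 0.41, adjusted p 2.63e-05) and had a value of 0.02 with BE-43547A1 (adjusted p 0.758). The ATG4B value with rakicidin A was 0.05 with total counts alone and did not pass, and that with BE-43547A1 was -0.21 and passed as lower (adjusted p 0.00913). ATG4D passed weakly as higher, at 0.36 with each compound (adjusted p 0.0302 and 0.0237). In GENCODE v29, 15% of the ATG4D exon bases are shared with KRI1 on the opposite strand. KRI1 had means of 35, 29.8 and 24.5 CPM in DMSO, rakicidin A and BE-43547A1, and the part of shared reads in the ATG4D values was not tested. Those ATG4D calls were lost without the first or the second DMSO library, without the second rakicidin A library (for rakicidin A) and without the first BE-43547A1 library (for BE-43547A1), with adjusted p from 0.0622 to 0.14. Total counts alone (0.005 and 0.12) did not give an ATG4D call with either compound, and no filter (0.36, adjusted p 0.0808) gave none with rakicidin A. ATG4A passed with neither compound. Its BE-43547A1 value was -0.17 (adjusted p 0.077), and without the third DMSO library it was -0.28 and passed (adjusted p 0.000965). ATG4A passed as lower with each compound under total counts alone, at -0.35 (adjusted p 0.00107) and -0.41 (adjusted p 0.000219).

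The ATG8 proteins that decorate the autophagosome membrane differed from one another in size of change. MAP1LC3B (LC3B), the standard marker protein of autophagosomes, stood at 17.9, 18.1 and 25.4 CPM in DMSO, 116, 127 and 127 CPM after rakicidin A, and 116, 119 and 129 CPM after BE-43547A1. The compounds overlapped fully and lay far above DMSO: the gene rose 6.0-fold (log2 2.58, SE 0.10, adjusted p 6.66e-14) and 5.92-fold (log2 2.56, SE 0.10, adjusted p 7.41e-14). The third DMSO library was the highest of the controls for MAP1LC3B, and without it the log2 fold changes were 2.77 and 2.75. GABARAPL1 stood at 6.76, 6.70 and 6.93 CPM in DMSO, 27.5, 28.1 and 28.3 CPM after rakicidin A, and 17.7, 17.7 and 16.5 CPM after BE-43547A1. It rose 4.11-fold (adjusted p 3.83e-14) and 2.54-fold (adjusted p 1.78e-11), in groups that were tight and apart.

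The remaining ATG8 genes were low or nearly level. MAP1LC3A (LC3A) stood at 1.19, 2.02 and 2.47 CPM in DMSO, 3.64, 2.91 and 3.52 CPM after rakicidin A, and 4.05, 4.45 and 4.97 CPM after BE-43547A1. It passed as higher with each compound, at log2 fold changes of 0.81 (SE 0.20, adjusted p 0.00172) and 1.23 (SE 0.19, adjusted p 1.05e-05), and with total counts alone the rakicidin A value was 0.45 and did not pass (adjusted p 0.054). GABARAP stood at 0.856, 1.07 and 0.938 CPM in DMSO, 0.91, 1.44 and 1.16 CPM after rakicidin A, and 2.47, 2.08 and 2.07 CPM after BE-43547A1. Its BE-43547A1 libraries were above all others, a 2.31-fold rise (adjusted p 1.98e-05), whereas rakicidin A overlapped DMSO (log2 fold change 0.30, SE 0.22, adjusted p 0.247). The counts behind GABARAP were 28 to 34 in DMSO and 25 to 45 after rakicidin A. GENCODE v29 places 30.5% of its exon bases in another gene on the same strand, AC120057.2, which has a count of 0 in all libraries. GABARAPL2 (GATE-16) stood at 22.0, 19.6 and 21.8 CPM in DMSO, 20.0, 20.2 and 20.9 CPM after rakicidin A, and 24.0, 24.9 and 22.5 CPM after BE-43547A1. Its BE-43547A1 libraries were just above the rest, at a log2 fold change of 0.17 (adjusted p 0.0398), which turned to -0.07 with total counts alone. That scaling gave -0.41 for GABARAPL2 with rakicidin A, called lower (adjusted p 7.96e-05), against -0.06 with TMM (adjusted p 0.517). With TMM, the GABARAPL2 call as higher with BE-43547A1 was lost without the second DMSO library (adjusted p 0.202) or without the first (0.0622) or second (0.11) BE-43547A1 library. It was also lost with the replicate number as a block (adjusted p 0.0523), with only the 6 libraries compared (0.0538) and with no filter (0.0764).

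Per kilobase of exon, the order of the ATG8 genes changed between groups. GABARAPL2 held 46.4 to 54.4% of the summed ATG8 level per kilobase in the DMSO libraries, against 16.8 to 17.5% with rakicidin A and 18.8 to 21.4% with BE-43547A1. The share of MAP1LC3B was 25.3 to 30.9% in the controls, 58.0 to 60.2% with rakicidin A and 58.3 to 61.5% with BE-43547A1. GABARAPL1 held 11.0 to 12.5%, 17.2 to 17.9% and 10.2 to 11.6% in the same order. The lengths are from GENCODE v29, a later annotation than the one the counts were made on. MAP1LC3B2, a near-identical copy of MAP1LC3B whose reads the counting could split or discard, stood at 1.28, 1.04 and 2.96 CPM in DMSO, 6.33, 8.41 and 8.03 CPM after rakicidin A, and 7.92, 8.05 and 9.20 CPM after BE-43547A1. It rose by 2.09 (adjusted p 2.6e-07) and 2.23 (adjusted p 5.72e-08) on the log2 scale, and the share of its reads that came from MAP1LC3B was not tested. The related MAP1LC3C and GABARAPL3 had group means of at most 0.0727 CPM and were not tested.

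**Figure D3:**
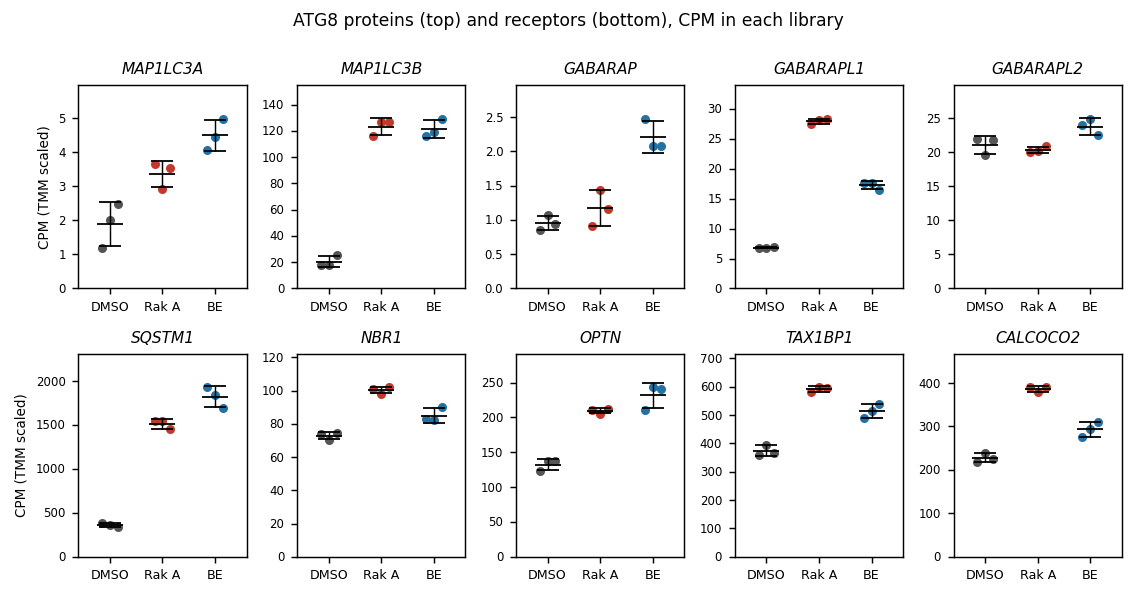
CPM in each library (points) with the mean and SD (bars, n = 3) for the 5 ATG8 genes (top) and the 5 receptors (bottom) in DMSO, rakicidin A (Rak A) and BE-43547A1 (BE). MAP1LC3B is at 116 to 127 CPM after rakicidin A and 116 to 129 CPM after BE-43547A1 against 17.9 to 25.4 CPM in DMSO, while GABARAPL2 stays between 19.6 and 24.9 CPM in all groups.

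All 5 receptors, which bind ubiquitinated cargo and ATG8 proteins at once, rose with each compound, and 4 of 5 with total counts alone. Of all features, 31.9% were called higher with rakicidin A and 35.3% with BE-43547A1, and with total counts alone 20.0% and 26.6%. SQSTM1 (p62), which gathers ubiquitinated protein into aggregates, stood at 381, 362 and 344 CPM in DMSO, 1541, 1545 and 1451 CPM after rakicidin A, and 1928, 1844 and 1696 CPM after BE-43547A1. No groups overlapped and BE-43547A1 was highest. SQSTM1 rose 4.17-fold (log2 2.06, SE 0.061, adjusted p 1.34e-15) and 5.03-fold (log2 2.33, SE 0.062, adjusted p 3.43e-16). Per kilobase of exon its mean was 47.3 CPM in DMSO and 198 and 238 CPM after rakicidin A and BE-43547A1, the highest of the 38 genes with each compound. In GENCODE v29, 20.7% of the SQSTM1 exon bases are shared with MRNIP on the opposite strand. MRNIP went from a mean of 26.5 CPM to 55.7 and 101 CPM, log2 fold changes of 1.07 and 1.93, and without a known strand setting reads in the shared bases cannot be told apart.

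The other receptors rose by less. OPTN (optineurin), a receptor for damaged mitochondria and bacteria, stood at 123, 137 and 137 CPM in DMSO, 211, 205 and 212 CPM after rakicidin A, and 211, 243 and 241 CPM after BE-43547A1, log2 fold changes of 0.66 and 0.81. CALCOCO2 (NDP52), a receptor for bacteria and mitochondria, stood at 219, 239 and 226 CPM in DMSO, 390, 379 and 390 CPM after rakicidin A, and 275, 294 and 311 CPM after BE-43547A1, log2 fold changes of 0.76 and 0.36. TAX1BP1, a paralogue of CALCOCO2 that clears protein aggregates, stood at 360, 396 and 368 CPM in DMSO, 580, 598 and 596 CPM after rakicidin A, and 489, 515 and 541 CPM after BE-43547A1, log2 fold changes of 0.66 and 0.46. For CALCOCO2 and TAX1BP1 the order of the groups was DMSO, BE-43547A1, rakicidin A, with no overlap, whereas the treated groups of OPTN touched. NBR1, a p62 partner and receptor for peroxisomes and aggregates, stood at 74.2, 70.4 and 74.4 CPM in DMSO, 101, 98.3 and 102 CPM after rakicidin A, and 82.7, 82.1 and 90.4 CPM after BE-43547A1. It passed at log2 fold changes of 0.46 (adjusted p 8.65e-07) and 0.22 (adjusted p 0.00184). NBR1 was at 0.10 with rakicidin A and -0.02 with BE-43547A1 under total counts alone and passed with neither.

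Set directly against each other at 42 and 41 nM after the same 12 h, the compounds gave autophagy gene levels that mostly differed by less than 1 on the log2 scale. In this 1 pair of compounds, 16 of 38 genes were higher with rakicidin A (42.1%, against 24.1% of all features tested) and 10 were higher with BE-43547A1 (26.3%, against 22.5%), with 12 not passing. With total counts alone 11 were higher with rakicidin A and 14 with BE-43547A1 (28.9% and 36.8%). Of all features, 17.6% were then called higher with rakicidin A and 30.7% higher with BE-43547A1. The median log2 difference of the 38 genes turned from 0.11 to -0.01. A difference of at least 1 was called for 1 gene, WIPI1 (2.63% of the 38, against 9.69% of all features), which was 2.03-fold higher with rakicidin A (log2 1.02, SE 0.067, adjusted p 1.57e-09). Total counts alone put WIPI1 at 0.90 and GABARAP at -1.03.

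Under that scaling AMBRA1, ATG4C, ATG7, NBR1 and TAX1BP1 lost their calls as higher with rakicidin A (adjusted p 0.0694 to 0.555). BECN1 (-0.16), ATG9A (-0.24), MAP1LC3A (-0.54) and OPTN (-0.26) then passed as higher with BE-43547A1.

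By role, and with TMM, the higher levels with rakicidin A included ULK1 (0.48, adjusted p 7.07e-05), ATG13 (0.59, adjusted p 1.01e-06), PIK3C3 (0.47, adjusted p 2.95e-05), PIK3R4 (0.37, adjusted p 4.94e-05) and AMBRA1 (0.29, adjusted p 0.00253), as log2 differences. In the conjugation group 6 of 11 genes were higher with rakicidin A and 3 with BE-43547A1 (4 and 3 with total counts alone), among the former ATG5 at 0.40, ATG4B at 0.39 and ATG12 at 0.36. With TMM these were 54.5% and 27.3%, against 24.1% and 22.5% of all features. With total counts alone 17.6% and 30.7% of all features were called. GABARAPL1 was 1.62-fold higher with rakicidin A (adjusted p 2.2e-07), as were CALCOCO2 (0.40), NBR1 (0.24) and TAX1BP1 (0.20) on the log2 scale. Of the 5 receptors, 3 were higher with rakicidin A and 1 with BE-43547A1 (60% and 20%, against the same 24.1% and 22.5%), and with total counts alone 1 and 2. Higher with BE-43547A1 were ATG14 (1.40-fold, adjusted p 7.12e-06), ATG2A (1.39-fold, adjusted p 3.15e-05), GABARAP (1.87-fold, adjusted p 0.000829) and SQSTM1 (1.20-fold, adjusted p 0.000996). ATG3 and UVRAG were also higher with BE-43547A1, by 1.15-fold and 1.14-fold. The weaker direct calls depended on single libraries. That of VMP1 (-0.15) was lost without any 1 rakicidin A library, the second DMSO library or the second or the third BE-43547A1 library (adjusted p 0.053 to 0.145). That of ATG7 (0.17) was lost without the second or the third library of either compound (0.0765 to 0.0904). UVRAG lost its call without the first or the third rakicidin A or the first BE-43547A1 library (0.0594 to 0.091), and ATG16L2 (-0.42) without the second rakicidin A (0.151) or first BE-43547A1 library (0.0758). ATG4C (0.33) lost it without the second rakicidin A or the first or the second BE-43547A1 library (0.0662 to 0.198). GABARAPL2 (-0.23) lost it without the first or the second rakicidin A or the second BE-43547A1 library (0.0581 to 0.0765), and TAX1BP1 without the first BE-43547A1 library (0.055).

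For the 12 genes that did not pass directly, the interval of the difference bounds what could have been missed. MAP1LC3B differed by 0.02 on the log2 scale (95% interval -0.17 to 0.21, adjusted p 0.882), and ATG2B by 0.11 (-0.04 to 0.26). WDR45 was at -0.08 (-0.29 to 0.12), RB1CC1 at 0.11 (-0.02 to 0.23), ULK2 at 0.05 (-0.08 to 0.18) and BECN1 at -0.04 (-0.16 to 0.08). Intervals for ATG9A, WIPI2 and ATG4D spanned 0 and lay within -0.29 to 0.28. MAP1LC3A (-0.80 to -0.05), OPTN (-0.28 to -0.01) and ATG4A (0.001 to 0.355) had intervals that leave out 0 but did not pass after adjustment over all features (adjusted p 0.0595, 0.0657 and 0.0932). In a fit of only the 6 libraries compared all 3 passed (0.0113, 0.0227 and 0.0287). Without the third DMSO library they passed too (0.03, 0.0408 and 0.0165), as did RB1CC1 (0.0412). Without the first DMSO library MAP1LC3A passed (0.0213), and without the first BE-43547A1 library OPTN did (0.012). An adjusted p above the threshold does not show that the compounds act alike on these genes.

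**Figure D4:**
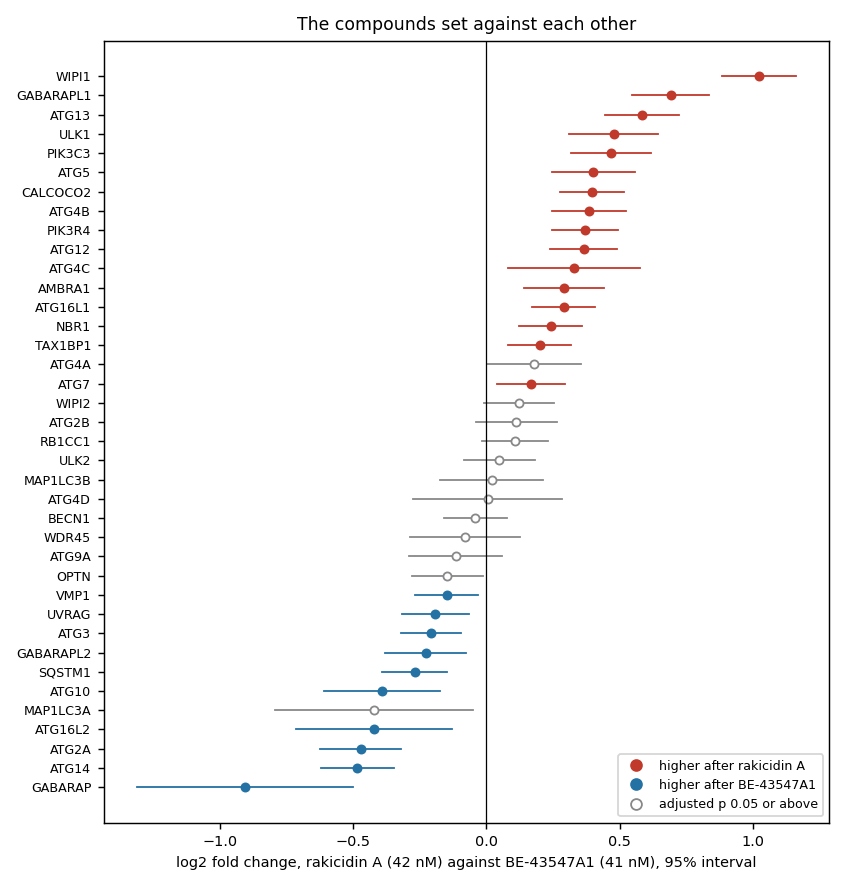
Log2 difference between rakicidin A and BE-43547A1 for the 38 genes, with the 95% interval of edgeR's quasi-likelihood fit (n = 3 libraries per group) and open points for genes that did not pass; values above 0 are higher with rakicidin A. WIPI1 at 1.02 is the farthest on 1 side and GABARAP at -0.90 on the other, and MAP1LC3B lies at 0.02.

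Other genes around the pathway were read from the same fit, in which 31.9% and 32.7% of all features were called higher and lower with rakicidin A and 35.3% and 35.1% with BE-43547A1. Of 14 further initiation and phagophore genes, 8 rose and 3 fell with each compound, 57.1% and 21.4% (7 and 5 genes with total counts alone). RUBCN (Rubicon), an inhibitor of the UVRAG complex, went from a mean of 24.4 CPM in DMSO to 127 CPM with rakicidin A and 90.9 CPM with BE-43547A1, rises of 2.38 and 1.90 on the log2 scale. ZFYVE1 (DFCP1), which marks the membrane where autophagosomes form, rose by 1.62 and 1.45. TBK1, the kinase that phosphorylates OPTN and SQSTM1, rose by 1.24 and 0.75, and TMEM41B, a scramblase that works with VMP1, rose by 1.40 and 0.58, in contrast to the fall of VMP1.

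Of 14 measured receptors for organelles, 7 rose and 7 fell with rakicidin A, 50% each (4 and 7 genes with total counts alone), and 6 rose and 6 fell with BE-43547A1, 42.9% each (2 and 8 genes with total counts alone). TOLLIP rose by 0.81 and 0.94 on the log2 scale. Receptors for the endoplasmic reticulum went both ways: RETREG1 (FAM134B) rose by 0.87 and 1.09 and SEC62 by 0.68 and 0.32, while TEX264 fell by 0.70 and 0.60. Among 14 genes of autophagosome fusion with the lysosome, 7 rose and 5 fell with each compound, 50% and 35.7% (6 and 7 genes with total counts alone). The share that fell is near that of all features. PLEKHM1, an adaptor between RAB7, the tethering complex HOPS and ATG8 proteins, rose by 2.74 and 3.09, and EPG5, a tethering factor, by 1.82 and 1.71. The HOPS subunit VPS18 rose by 1.07 and 1.14. VPS11, of the same complex, rose by 0.65 with rakicidin A and 1.82 with BE-43547A1, a direct difference of -1.17 (adjusted p 5.91e-10).

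Of 24 genes of mTORC1 and AMPK, the kinases that restrain and promote autophagy, 14 rose and 5 fell with rakicidin A, and 13 rose and 8 fell with BE-43547A1 (58.3% and 20.8%, then 54.2% and 33.3%). With total counts alone 10 rose and 10 fell, and 8 rose and 10 fell. SESN2, an inhibitor of mTORC1, rose by 3.99 and 3.81 on the log2 scale, TRIB3, an AKT inhibitor, by 4.15 and 2.69, and TSC1, which also restrains mTORC1, by 0.94 and 1.29. RRAGC, which activates mTORC1, rose by 2.44 and 3.04. Of 12 transcription factors of autophagy genes, 9 rose and 2 fell with rakicidin A (75% and 16.7%). With BE-43547A1, 9 rose and 1 fell (75% and 8.33%), and with total counts alone 9 rose and 3 fell with each compound. The 4 with the smallest p were DDIT3 (CHOP), which rose by 4.55 and 4.42, XBP1 (3.09 and 2.91), CEBPB (2.89 and 3.03) and ATF4 (2.33 and 1.96). Chosen after their values were seen, the lysosomal regulators also went different ways. TFE3 rose by 1.50 and 1.89 and MITF by 1.73 and 1.05, whereas TFEB, at 1.67 CPM in DMSO, fell by 0.71 with rakicidin A (adjusted p 0.0111) and had a value of -0.41 with BE-43547A1 (adjusted p 0.0858). ZKSCAN3, a repressor of autophagy genes, fell by 2.54 and 2.57.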

How the data were processed

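PANC-1 total RNA was read as paired ends, per the labels' protocols. The deposited table holds a raw count per feature and library, with no normalization. Per the submitters' processing notes, TopHat2, HTSeq and the builds GRCh37 and hg19 were used. Versions, strand and overlap settings are not given in any source used here. HTSeq's 5 summary lines were kept out of library sizes and tests. Reads on no feature came to 16.4 to 20.8%, ambiguous reads to 2.65 to 2.94% and reads at more than 1 site to 19.1 to 22.4% of the total, which lowers the counts of genes with near-identical copies or overlapping neighbours.

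Counts were filtered with filterByExpr, scaled by TMM and fitted in R 4.3.3 with edgeR 4.0.16 (quasi-likelihood, 1 mean per group, 9 libraries, 6 residual degrees of freedom), and p-values were adjusted by Benjamini and Hochberg over 22353 features. A standard error is the absolute log2 fold change divided by the root of F, and intervals are at 95%. The script was tested on simulated data in which few features changed, unlike here, so that test does not bear on the choice of scaling. All 38 genes are accounted for. Values in every library are given for those that passed with a change of at least 1 on the log2 scale in any comparison, for all ATG8 genes and receptors, and for VMP1 and ATG12, chosen after their values were seen. From each list of other genes up to 4 with the smallest product of p were named, and ATG101 was named beside the ULK complex. The genes and lists were chosen with earlier results of these data known. Results were recomputed with DESeq2 1.42.0, limma-voom (limma 3.58.1), RLE size factors, library totals in place of TMM, unfiltered features, only the 6 libraries compared, a block for the replicate number, and each library left out. Promoter sequences are from RefSeq (GRCh38.p14), and exon overlaps and lengths from GENCODE v29, whose build differs from that of the counts.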

Additional observations from a re-analysis of the deposited data

How the results depend on the processing

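Total counts alone in place of TMM moved the most results. Over all features, 4477 were then higher and 11392 lower with rakicidin A against DMSO, and 5951 and 10450 with BE-43547A1. Of the 38 autophagy genes, 17 were then higher and 11 lower with rakicidin A, and 14 lower with BE-43547A1. The direction of 16 values turned. Against DMSO with rakicidin A these were PIK3C3 (-0.046), PIK3R4 (-0.073), ATG4A (-0.35), ATG5 (-0.061), ATG7 (-0.10) and GABARAP (-0.054), and with BE-43547A1 ATG9A (-0.16), ATG4B (-0.21), ATG7 (-0.15), GABARAPL2 (-0.066) and NBR1 (-0.017), as log2 fold changes. In the direct comparison they were ULK2 (-0.072), RB1CC1 (-0.012), ATG2B (-0.008), ATG4D (-0.12) and MAP1LC3B (-0.10). With no filter, ATG4A with rakicidin A turned to -0.002 and the direct values of ATG4D and MAP1LC3B to -0.019 and -0.004. Total counts alone lowered the values of a comparison by a similar amount at both ends, so small positive values turned. With rakicidin A against DMSO, the lowest and highest values of the 38 genes went from -1.186 and 2.671 to -1.544 and 2.313. With BE-43547A1 they went from -1.516 and 2.565 to -1.753 and 2.327. Why the factors differ between groups, and what moved the values without the filter, was not tested.

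With 1 library left out, values near 0 turned. The value with rakicidin A ranged from -0.096 to 0.049 for ATG9A and from -0.095 to 0.072 for ATG4A, and that of ATG4B with BE-43547A1 from -0.018 to 0.065. The direct value ranged from -0.082 to 0.004 for BECN1, from -0.065 to 0.138 for ATG4D and from -0.020 to 0.070 for MAP1LC3B. The number of autophagy genes called ran from 25 to 26 higher and 6 to 7 lower with rakicidin A, from 21 to 23 and 7 to 10 with BE-43547A1, and from 14 to 18 and 7 to 12 directly. Over all features, calls ran from 6832 to 7378 higher and 6779 to 7518 lower with rakicidin A. They ran from 7622 to 8284 and 7487 to 8170 with BE-43547A1, and from 4738 to 5893 and 4059 to 5563 directly. DESeq2, RLE size factors and limma-voom left the direction and call of all 114 values as they were. No filter also changed 6 calls without turning them: ATG4D with rakicidin A, GABARAPL2 with BE-43547A1 and the direct calls of ATG4C and ATG7 were lost, and MAP1LC3A and OPTN passed directly. Only the 6 libraries of a comparison changed 4: GABARAPL2 with BE-43547A1 was lost, and ATG4A, MAP1LC3A and OPTN passed directly.

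Same-numbered libraries of different groups had correlations of -0.057 to 0.122 in their deviations from the group means. For libraries with different numbers they were -0.097 to 0.092. The labels do not say whether the numbers pair the libraries, and these correlations do not settle it. With the replicate number as a block, 26 and 7 autophagy genes were called with rakicidin A, 22 and 7 with BE-43547A1 and 16 and 10 directly, as higher and lower. The 1 call that changed was GABARAPL2 with BE-43547A1 (0.17, adjusted p 0.0523). Over all features, the block gave 7116 higher and 7243 lower with rakicidin A, 7876 and 7794 with BE-43547A1, and 5353 and 4994 directly. Depth limits GABARAP, MAP1LC3A, ATG4D and ATG16L2 most, the genes with the lowest summed counts of the 38.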
